A study of Mus musculus with 4 samples.

Results

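The genes described here carry fatty acids into cells and hold them there. They are 10 of the 21878 genes with mRNA values, namely Lpl, Gpihbp1, Cd36, Slc27a1, Acsl1, Fabp3, Fabp4, Fabp5, Fabp7 and Aqp7. They were chosen by name, and the values of their 44 transcripts, of 75959 in all, were summed per gene. RNA came from C3H10T1/2, a mouse mesenchymal stem cell line that can turn into muscle, fat and cartilage cells. There were 2 untreated samples, replicates 1 and 2, and 2 samples given 5-AZA (5-azacytidine), replicates 101 and 102. 5-AZA is a cytidine analogue that lowers DNA methylation. The 5-AZA samples received 20 μM for 72 hours, followed by 21 days in fresh medium, while the sources give no time in culture for untreated cells. The study aimed at muscle and heart muscle cells and describes subcloning of myotube-like cells, but not whether the sequenced cells were subcloned. The paper calls the replicates biological repeats, but neither it nor GEO's labels say whether they were separate cultures, so p-values measure only the spread between these samples.

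Fat and muscle cells take up fatty acids in steps. Lipoprotein lipase (Lpl), anchored at the vessel wall by Gpihbp1, frees fatty acids from circulating triglycerides. Cd36 and the transporter Slc27a1 (FATP1) help them across the plasma membrane, and acyl-CoA synthetases such as Acsl1 trap them as acyl-CoA. Fatty acid-binding proteins (Fabp) hold them in the cytosol, with Fabp3 typical of muscle and heart, Fabp4 of fat cells and macrophages, Fabp5 of skin and Fabp7 of brain. Aqp7 is a channel through which fat cells release glycerol. PPARγ, the fat cell transcription factor, is known to drive several of these genes, and the authors list 9 of the 10 under the KEGG PPAR signaling pathway, all except Gpihbp1.

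After 5-AZA, 8 of the 10 genes rose and 2 were listed at 0 in all 4 samples. The values are FPKM, fragments scaled to transcript length and to the sequenced fragments, so that levels of different genes can be compared. No read counts can be read from FPKM, and the depth is therefore unknown. All genes summed to between 328410 and 361664 FPKM per sample, and 10298 to 11124 genes reached 1 FPKM. A gene was called where limma on log2(FPKM + 0.1), over all 13199 genes with a mean of at least 0.1 FPKM, gave a Benjamini-Hochberg adjusted p-value below 0.05 and a change over 2-fold. Of all genes tested, 13.1% were called higher and 1.32% lower, 1724 and 174 genes. Quantile normalization gave 1041 and 886, so that 54.0% of the calls were higher in place of 90.8%, and it moved the median log2 fold change of all genes from 0.05 to -0.12. Fabp3, Cd36 and Aqp7 were below 0.1 FPKM in both untreated samples and passed the limit on low values only through the 5-AZA samples, so their calls could not have gone the other way. The other 5 called genes were above the limit in the untreated samples too. In bulk RNA, more cells of a type and more RNA per cell cannot be told apart.

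**Figure D1:**
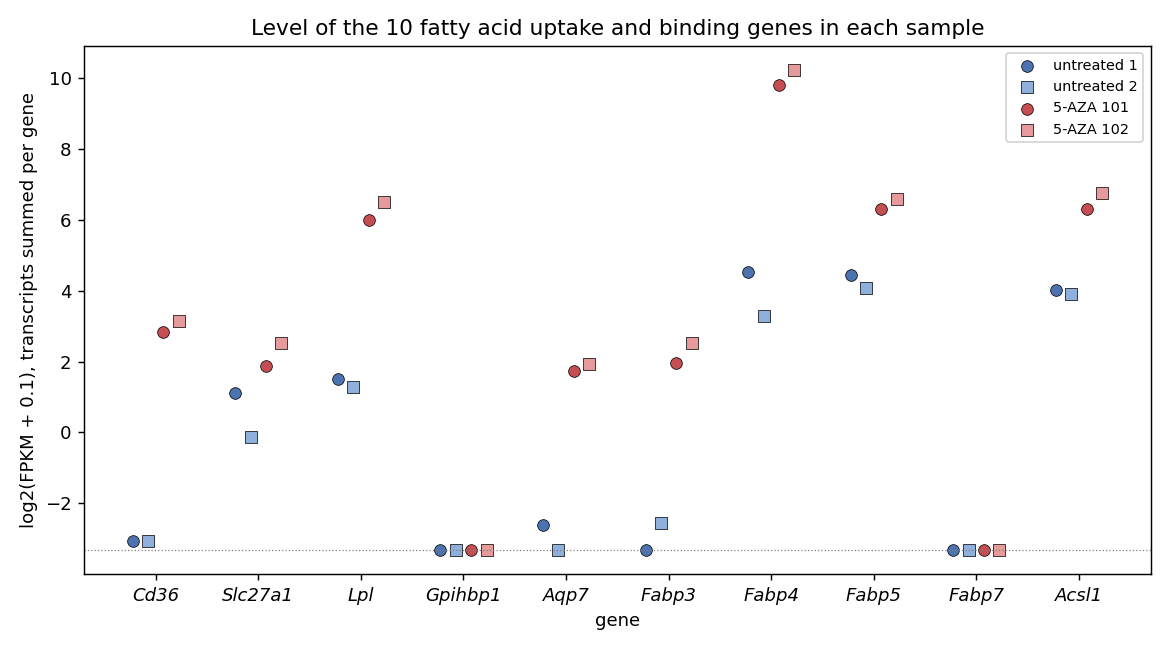
Level of each of the 10 genes in the 4 samples, as log2(FPKM + 0.1) of transcripts summed per gene, with blue for untreated and red for 5-AZA samples and a dotted line at 0 FPKM. In 8 genes both 5-AZA points lie above both untreated points, and all points of Gpihbp1 and Fabp7 lie on the dotted line.

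The 250 bases upstream of the annotated start are shown for 4 of these genes that rose together, because 5-AZA acts on methylated cytosines, which lie mostly in CpG dinucleotides. Methylation itself was not measured. The sequences are those of RefSeq for build GRCm38.p6, read 5′ to 3′ on the strand of the gene, with each CpG in capitals. They lie at chr4:130308488-130308737 on the plus strand for Fabp3, chr8:46470787-46471036 on the plus strand for Acsl1, chr5:17835897-17836146 on the minus strand for Cd36 and chr4:41048137-41048386 on the minus strand for Aqp7.
Fabp3: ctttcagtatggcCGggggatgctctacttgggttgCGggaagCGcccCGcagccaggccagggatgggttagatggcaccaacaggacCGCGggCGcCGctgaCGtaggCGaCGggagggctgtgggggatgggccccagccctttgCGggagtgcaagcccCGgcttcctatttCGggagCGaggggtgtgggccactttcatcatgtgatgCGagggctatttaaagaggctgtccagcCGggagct
Acsl1: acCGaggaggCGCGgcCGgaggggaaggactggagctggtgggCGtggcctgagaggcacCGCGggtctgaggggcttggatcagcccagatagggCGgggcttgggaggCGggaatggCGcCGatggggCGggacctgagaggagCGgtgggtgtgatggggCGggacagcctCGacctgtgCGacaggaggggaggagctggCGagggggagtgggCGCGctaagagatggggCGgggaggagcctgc
Cd36: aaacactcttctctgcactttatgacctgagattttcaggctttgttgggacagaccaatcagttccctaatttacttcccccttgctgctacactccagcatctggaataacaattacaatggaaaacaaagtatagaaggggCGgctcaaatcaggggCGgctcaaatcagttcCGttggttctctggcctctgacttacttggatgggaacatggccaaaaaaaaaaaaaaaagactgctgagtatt
Aqp7: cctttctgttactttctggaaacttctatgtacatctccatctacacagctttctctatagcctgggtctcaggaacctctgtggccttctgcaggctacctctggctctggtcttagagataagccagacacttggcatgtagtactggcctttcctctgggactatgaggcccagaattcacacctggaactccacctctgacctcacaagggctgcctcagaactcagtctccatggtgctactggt

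These upstream regions differed widely in CpG. The Acsl1 region held 20 CpG and the Fabp3 region 17, counts that 17.9% and 23.5% of all 32851 upstream regions in the table reach. The Cd36 region held 3 and the Aqp7 region 0, against a median of 6 over all regions. At the starts shown, the count ranged from 0 to 20 CpG, and a link between CpG and the rise after 5-AZA was not tested. Acsl1 and Aqp7 each have another annotated start, and both of those regions held 2 CpG. Slc27a1 had 3 regions with 8, 12 and 10 CpG, and Fabp7, which was listed at 0 in every sample, had a region with 4. A search on both strands for AGGTCA, the hexamer bound by nuclear receptors such as PPARγ, found it upstream of Cd36, Fabp7 and Aqp7, in 4 of 10 regions, while 14.0% of all regions hold it. The 2 Aqp7 regions overlap by 76 bases and share 1 of these hexamers, so the regions are not all separate. The pair of hexamers spaced by any base, AGGTCANAGGTCA, occurred in 0 of the 10 regions and in 0.0335% of all regions. These matches are descriptions of the letters in these windows. Lpl, Fabp4, Fabp5 and Gpihbp1 had no entry.

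Lpl, the secreted enzyme that opens the pathway, stood at 2.75 and 2.35 FPKM in untreated replicates 1 and 2 and at 63.8 and 89.5 FPKM in 5-AZA replicates 101 and 102. The groups were far apart, with both untreated samples close to each other. The means were 2.55 ± 0.28 and 76.7 ± 18.2 FPKM (SD, n = 2 in each group), 30.1 times higher after 5-AZA, and the log2 fold change of 4.84 (standard error 0.17, 95% interval 4.45 to 5.23) passed with an adjusted p = 5.04e-07 (limma). Its partner Gpihbp1, a protein of capillary endothelium that binds the lipase, was listed at 0 in all 4 samples in both of its transcripts.

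Of the uptake genes at the plasma membrane, Cd36, a scavenger receptor that also binds long-chain fatty acids, went from values near 0 to several FPKM. It was listed at 0.0207 and 0.0208 FPKM in the untreated samples and at 7.05 and 8.68 FPKM after 5-AZA. On the log2 scale it was higher by 6.04, with a standard error of 0.26, a 95% interval from 5.44 to 6.63 and an adjusted p = 1.43e-06 (limma), and this value depended on the pseudocount, from 3.11 with 1 FPKM to 7.99 with 0.01 FPKM. Only 60 and 66 of the 13199 genes tested had a larger log2 fold change than Fabp4 and Cd36.

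Slc27a1, a transport protein with acyl-CoA synthetase activity, had the smallest log2 fold change of the 8 called genes. Its values were 2.05 and 0.807 FPKM in the untreated samples and 3.57 and 5.63 FPKM in the 5-AZA samples, so the groups did not overlap but replicates differed widely. The adjusted p was 0.0126 (limma), with a log2 fold change of 1.72 and a 95% interval from 0.83 to 2.61. This call was lost in eBayes without trend (adjusted p = 0.0776), without the limit on low values (adjusted p = 0.196), and with only curated transcripts, an alternative chosen after seeing the data (log2 fold change 1.03, adjusted p = 0.383, all limma).

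Acsl1, which activates long-chain fatty acids, was well expressed before treatment. It stood at 16.0 and 15.0 FPKM in the untreated samples and at 78.9 and 108 FPKM after 5-AZA. The means of 15.5 ± 0.7 and 93.5 ± 20.6 FPKM (SD, n = 2) were 6.02 times apart, and the adjusted p was 5.89e-06 (limma, log2 fold change 2.57, standard error 0.15).

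Fabp4, the binding protein of fat cells, had the highest level of the 10 genes after treatment. It was listed at 22.9 and 9.66 FPKM in the untreated samples and at 887 and 1196 FPKM in the 5-AZA samples. Among all 21878 genes it ranked 2482 and 4992 by FPKM in the untreated samples and 38 and 24 in 5-AZA replicates 101 and 102. The means were 16.3 ± 9.4 and 1041 ± 218 FPKM (SD, n = 2), 63.9 times apart, and the log2 fold change was 6.10 (standard error 0.33, 95% interval 5.34 to 6.86, adjusted p = 4.81e-06, limma). The spread between the untreated replicates was wide but small beside the change.

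Fabp5, the binding protein first known from skin, rose less. Its values were 21.7 and 16.6 FPKM in the untreated samples and 79.5 and 96.5 FPKM after 5-AZA, 4.59 times apart in the means (log2 fold change 2.20, standard error 0.15, adjusted p = 1.37e-05, limma). Fabp4 and Fabp5 were thus near the same level in untreated cells and far apart after 5-AZA. The ratio of Fabp4 to Fabp5 was 1.06 and 0.581 in the untreated samples and 11.2 and 12.4 in the 5-AZA samples. This shift in the ratio was not tested. With 2 samples against 2, the smallest p-value of a two-sided exact permutation test is 0.333, so that test could not pass. Of the FPKM summed over Fabp3, Fabp4, Fabp5 and Fabp7, Fabp4 made up 51.4% and 36.6% in the untreated samples and 91.4% and 92.1% after 5-AZA.

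Fabp3, the binding protein of muscle and heart, was listed at 0 and 0.0699 FPKM in the untreated samples and at 3.76 and 5.60 FPKM in the 5-AZA samples. It passed with an adjusted p = 1.47e-05 (limma, log2 fold change 5.17, standard error 0.35), and its level after 5-AZA remained far below those of Fabp4 and Fabp5. Fabp7, the brain form, was listed at 0 in all 4 samples. Aqp7, the glycerol channel, was listed at 0.0626 and 7.01e-06 FPKM in the untreated samples and at 3.23 and 3.71 FPKM after 5-AZA (log2 fold change 4.80, standard error 0.33, adjusted p = 1.51e-05, limma). The log2 fold changes of Fabp3 and Aqp7 ranged from 2.44 to 7.35 and from 2.11 to 7.01 over the alternatives.

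The order of the levels changed with treatment. In untreated cells Fabp5, Fabp4 and Acsl1 led at 19.2, 16.3 and 15.5 FPKM in the mean, and Fabp4 overlapped with both others, so its place cannot be read, while both Fabp5 values lay above both Acsl1 values. Lpl followed at 2.55 FPKM and Slc27a1 at 1.43 FPKM, and Cd36, Fabp3 and Aqp7 lay below 0.1 FPKM. After 5-AZA Fabp4 led alone at 1041 FPKM. Acsl1, Fabp5 and Lpl followed at 93.5, 88.0 and 76.7 FPKM with overlapping samples. Cd36 stood at 7.87 FPKM, and below it Fabp3 at 4.68 and Slc27a1 at 4.60 FPKM overlapped, as did Slc27a1 and Aqp7, the latter at 3.47 FPKM, only in part, since the Aqp7 samples reached from 3.23 to 3.71 FPKM and those of Slc27a1 from 3.57 to 5.63 FPKM. Summed over the 10 genes, the level was 65.5 and 44.6 FPKM in the untreated samples and 1126 and 1513 FPKM in the 5-AZA samples, or 0.0190% and 0.0133% against 0.343% and 0.418% of the FPKM of all genes.

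With 1 sample left out, the spread within a group comes only from the pair that remains, and the calls depend on which pair that is. The log2 fold change of Fabp4 was 6.10 with all samples. It was 6.32 without 5-AZA replicate 101 and 5.89 without replicate 102. All 8 genes remained called when either untreated replicate was left out. Without 5-AZA replicate 101 and likewise without replicate 102, 3 of the 8 remained called, Lpl, Cd36 and Acsl1. Fabp3, Fabp4, Fabp5 and Aqp7 then had adjusted p-values from 0.0510 to 0.0820, with log2 fold changes from 2.06 to 6.32, and Slc27a1 had 0.227 and 0.340 (limma). In these fits the lone 5-AZA sample is assumed to vary like the untreated ones. Both 5-AZA values lay above both untreated values in each of the 8 genes, a pattern that 36.8% of all genes tested show, while 25.4% show the opposite one.

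The 5-AZA replicates themselves differed in a common direction. All 8 genes were higher in replicate 102 than in replicate 101, with a median gap of 0.44 on the log2 scale, while 9845 of the 13199 genes tested were higher there with a median gap of 0.15. Among the untreated samples 6 of the 8 were higher in replicate 1, and the widest gaps there were those of Fabp4 and Slc27a1, each -1.24 on the log2 scale for replicate 2 minus replicate 1.

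The files list several transcripts for most of these genes, and reads from shared exons cannot be assigned to 1 transcript with certainty. Of the 44 transcripts 29 passed the limit on low values, and 8 of these were called higher and 0 lower, against 2.1% and 0.262% of the 35557 transcripts tested (limma). At an unadjusted p-value below 0.05, 15 were higher and 0 lower, against 10.6% and 5.37% of all transcripts tested. The 8 belonged to 7 genes, with Acsl1 holding 2 and Slc27a1 none. For Fabp4 and Fabp5 a single transcript made up nearly the whole level after 5-AZA. NM_024406.2 held 99.1% and 99.7% of Fabp4, and NM_010634.3 held 97.5% and 99.4% of Fabp5.

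In Acsl1 the level was shared by NM_007981.4 and the predicted XM_006509262.3, which held 46.7% and 36.2% of the gene in 5-AZA replicate 101 and 49.6% and 40.7% in replicate 102. In the untreated replicates these shares were 53.4% and 22.7% in replicate 1 and 28.5% and 45.7% in replicate 2, so no change of share stands out from the spread. In Cd36 the predicted transcript XM_006535621.3 held 47.6% and 63.1% after 5-AZA, and was the only one of its 11 transcripts to be called (log2 fold change 5.33, adjusted p = 0.0117, limma). The 5 curated transcripts of Cd36 together reached 1.80 and 1.87 FPKM. In Aqp7 NM_007473.4 held 84.3% and 85.9% of the level after 5-AZA.

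Slc27a1 stood apart, because the replicates of a group were given different transcripts. In 5-AZA replicate 101 XM_006509676.3 held 61.4% of the gene and in replicate 102 0.0774%. XM_006509675.3 held 5.00% in replicate 101 and 44.2% in replicate 102. Of the 7 Slc27a1 transcripts tested, 5 overlapped between the groups and 0 were called, also at an unadjusted p-value below 0.05 (limma).

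**Figure D2:**
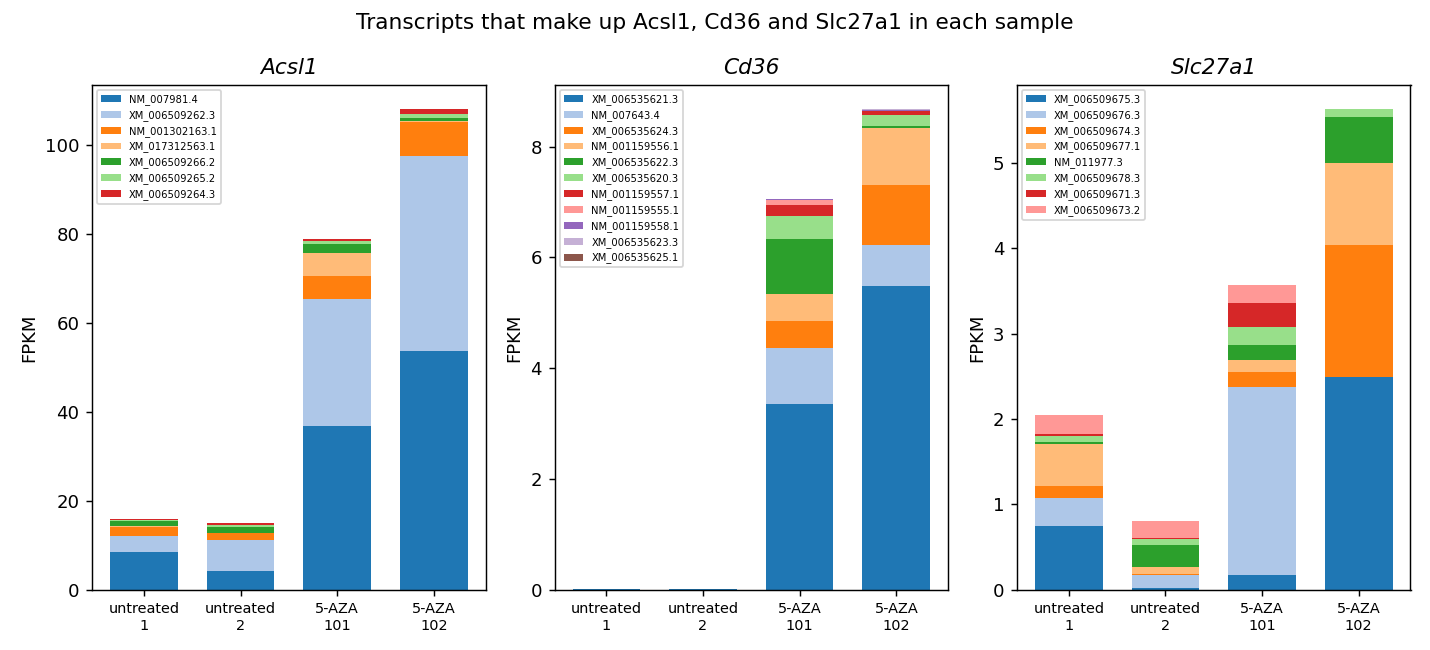
FPKM of each transcript of Acsl1, Cd36 and Slc27a1, stacked to the level of the gene, in the 4 samples, with 1 color for each transcript of a gene. NM_007981.4 and XM_006509262.3 lead in Acsl1 in both 5-AZA samples, XM_006535621.3 leads in Cd36, and the leading transcript of Slc27a1 differs between the 5-AZA samples.

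Genes of the same steps outside these 10 were described by lists chosen by function. Lists of 58 such genes held 43 that were tested. The calls were 7 higher and 2 lower, and the median log2 fold change was 0.17 against 0.05 over all genes. Of the 7, Acsbg1, Acsl6, Angptl8 and Fabp9 were below 0.1 FPKM in both untreated samples and, like Fabp3, Cd36 and Aqp7, could only be called higher. Without 5-AZA replicate 101 or 102 the counts were 5 and 2 in each case. With either limit of 1 FPKM, as pseudocount or as lowest mean, 3 and 2 genes were called higher, and quantile normalization gave 3 higher and 4 lower.

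Among the other fatty acid-binding proteins, Fabp1, Fabp2 and Fabp6 of liver and gut were listed at 0 in all samples, and Fabp12 was at 0 except for 0.0763 FPKM in 5-AZA replicate 102. Pmp2, the binding protein of peripheral myelin, was the one that fell. It went from 3.06 and 2.98 FPKM to 0.311 and 0.433 FPKM (log2 fold change -2.74, standard error 0.25, adjusted p = 8.79e-05, limma), a call that held under all 12 alternatives. Fabp9, a testis form, was listed at 0 in both untreated samples and at 0.109 and 0.843 FPKM after 5-AZA (adjusted p = 0.0441, limma), and 6 of the 12 alternatives no longer called it, quantile normalization among them.

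Of the other fatty acid transport proteins 0 of 3 tested were called (limma), and 1, Slc27a6, was lower at an unadjusted p-value below 0.05, as were 11.1% of all genes tested, while 24.4% were higher at that level. Slc27a4 stood between 5.29 and 5.88 FPKM in all samples. Slc27a6 went from 10.1 and 8.88 to 6.57 and 5.33 FPKM, with an adjusted p = 0.0151 (limma) but a change below 2-fold. Among the acyl-CoA synthetases, Acsl3, Acsl4 and Acsl5 were above 10 FPKM in every sample and were not called, and Acsl5 had a log2 fold change of -0.50. Acsl6 was listed at 0 in the untreated samples and at 0.237 and 0.581 FPKM after 5-AZA, and it was called higher. That call held in 8 of the 12 alternatives, and quantile normalization was among those that lost it (adjusted p = 0.104, limma). Acsbg1 rose from 0.0774 and 0.0727 to 1.69 and 2.10 FPKM (adjusted p = 5.44e-05, limma), and Acsbg2 fell from 0.232 and 0.205 to 0.0289 and 0.0162 FPKM (adjusted p = 0.0340, limma), a call lost in 5 of the 12 alternatives, among them those without 5-AZA replicate 102 and without either untreated replicate. In contrast to Acsl1, these genes were low or moved little.

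Of the genes that act on the lipase, Angptl4, a secreted inhibitor of Lpl, rose from 10.9 and 12.8 to 27.5 and 36.0 FPKM (log2 fold change 1.41, standard error 0.15, adjusted p = 2.10e-04, limma), a call lost without either 5-AZA replicate and without the limit on low values. Angptl8, a further regulator of the lipase, was listed at 0 in the untreated samples and at 0.560 and 0.321 FPKM after 5-AZA (adjusted p = 0.00281, limma, and 0.0734 after quantile normalization). The Angptl8 call held in 9 of the 12 alternatives. Sel1l, which helps the lipase leave the endoplasmic reticulum, stood between 25.8 and 30.5 FPKM and Lmf1, its maturation factor, between 7.86 and 11.4 FPKM, and neither was called. Apoc2, the cofactor that activates Lpl, did not exceed 0.157 FPKM in any sample.

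Among genes of glycerol handling, Gpd1, which makes glycerol 3-phosphate for triglycerides, rose from 2.81 and 1.98 to 66.6 and 103 FPKM (log2 fold change 5.07, standard error 0.22, adjusted p = 1.60e-06, limma), also under all 12 alternatives. Gk, glycerol kinase, went from 3.45 and 3.56 to 2.69 and 2.24 FPKM and was not called. Aqp9 was at 0 after 5-AZA, and Aqp3 did not exceed 0.203 FPKM.

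Of the genes for holding acyl-CoA 0 of 5 tested were called (limma), and 1, Acbd4, was higher at an unadjusted p-value below 0.05. Acbd4 also had an adjusted p = 0.00793 (limma), but its log2 fold change of 0.70 was below 2-fold. Dbi, the acyl-CoA-binding protein, was the most abundant of the related genes at 443, 516, 433 and 526 FPKM in untreated replicates 1 and 2 and 5-AZA replicates 101 and 102. Its log2 fold change was -0.002, with a 95% interval from -0.30 to 0.30. Acbd3 and Acbd5 lay between 14.3 and 18.8 FPKM in every sample. Of the carnitine shuttle, 1 of 6 tested was called (limma), while 5 were higher at an unadjusted p-value below 0.05. Some of those not called also had an adjusted p-value below 0.05 (limma) but a change below 2-fold. Cpt1a was at 11.6 and 10.4 against 12.1 and 13.4 FPKM and Slc25a20 at 10.5 and 10.5 against 13.5 and 13.5 FPKM, and neither was called. Cpt1b, the muscle form of the first enzyme, was called higher at 0.194 and 0.375 against 0.963 and 0.789 FPKM (adjusted p = 0.0184, limma), but not in 7 of the 12 alternatives.

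Among the other lipid receptors, Scarb1 was higher at an unadjusted p-value below 0.05 but was not called (limma). Scarb2, Got2 and Lrp1 were above 20 FPKM in every sample with log2 fold changes of -0.04, -0.04 and 0.17. Of the PPAR and RXR factors and their coactivators 0 of 6 tested were called (limma), while 3, Pparg, Ppargc1a and Ppargc1b, were higher at an unadjusted p-value below 0.05, against 24.4% of all genes tested. Pparg stood at 13.8 and 15.9 FPKM in the untreated samples and at 22.2 and 36.0 FPKM after 5-AZA, with an adjusted p = 0.0114 (limma) and a log2 fold change of 0.92, which is below 2-fold. Ppargc1a likewise had an adjusted p = 0.0460 (limma) and a log2 fold change of 0.94, below 2-fold, while Ppargc1b had an adjusted p = 0.0763 (limma). Ppara did not exceed 0.0591 FPKM. Rxrb lay between 12.4 and 15.3 FPKM.

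**Figure D3:**
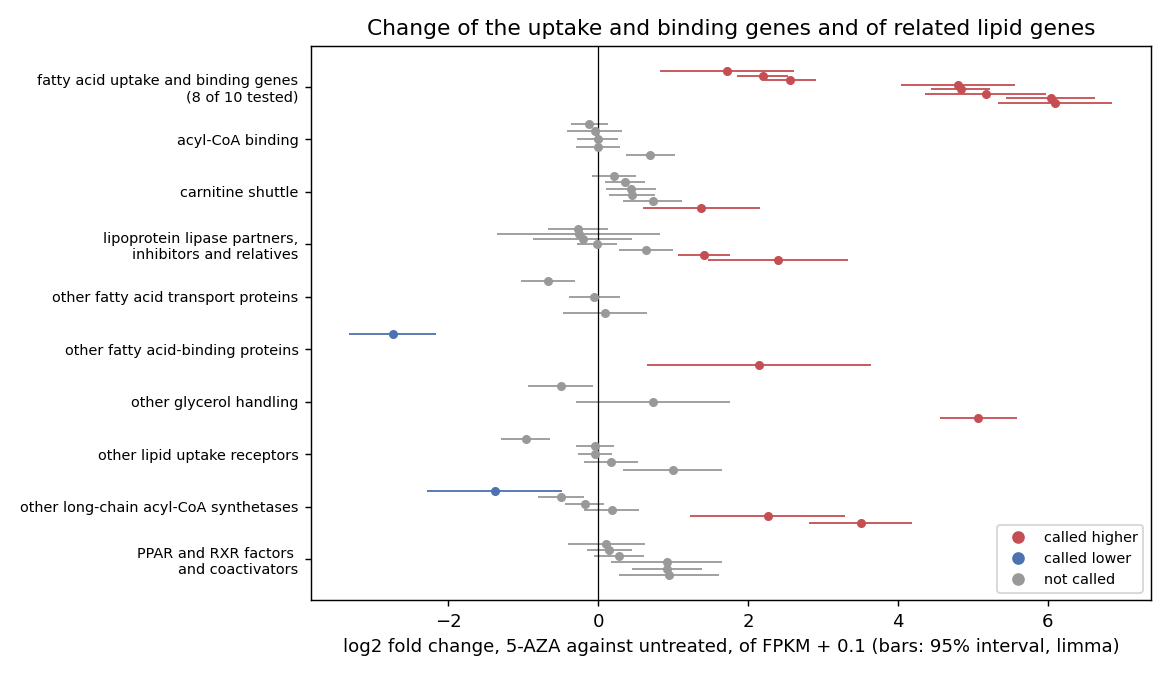
Log2 fold change of FPKM + 0.1, 5-AZA against untreated, for the 8 uptake and binding genes tested and for the tested genes of 9 related lists, with 95% intervals from limma, in red where called higher, in blue where called lower and in grey otherwise. The 8 genes lie between 1.72 and 6.10, and of the 43 related genes only Gpd1 at 5.07 lies among the upper 5 of them.

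The KEGG PPAR signaling pathway, as the authors list it, holds 76 genes besides these 9. Among the 46 tested, 13 passed as higher and 2 as lower, and the median log2 fold change was 0.25. Without 5-AZA replicate 101 there were 5 and 1, and without replicate 102 4 and 0. Plin1, Adipoq, Nr1h3, Ehhadh, Me1, Angptl4 and Cpt1b were among those called in neither of these fits, and Scd1 was lost without replicate 102. The most raised was Plin1, a lipid droplet coat protein, from 0.249 and 0.0493 to 19.2 and 32.8 FPKM (log2 fold change 6.79, adjusted p = 6.75e-06, limma). Adipoq, the fat cell hormone adiponectin, rose from 5.45 and 2.10 to 86.8 and 123 FPKM, and Scd1, a stearoyl-CoA desaturase, from 45.9 and 35.4 to 224 and 284 FPKM. Scd1 is thus a further gene that was well expressed before treatment and rose.

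Other pathway genes called higher included Nr1h3 (the oxysterol receptor LXRα), Me1 (malic enzyme), Ehhadh, Pck1 and Cyp27a1, besides Acsbg1, Acsl6, Angptl4 and Cpt1b above. The levels of the first 5 after 5-AZA ran from 0.379 FPKM for Pck1 to 27.1 FPKM for Me1, and Cyp27a1 was listed at 0 in the untreated samples. Of the 13 pathway genes called higher, 4, Acsbg1, Acsl6, Cyp27a1 and Pck1, were below 0.1 FPKM in both untreated samples. Besides Acsbg2, Scd4 fell, from 0.961 and 0.542 to 0.216 and 0.255 FPKM (adjusted p = 0.0271, limma), and was called in 6 of the 12 alternatives.

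Cell type markers moved with these genes. Of 8 adipocyte markers 7 were tested and all 7 were called higher, and their summed level was 11.4 and 6.63 FPKM in the untreated and 209 and 299 FPKM in the 5-AZA samples. Adipoq was the highest of them, and Lep, the gene of leptin, did not exceed 0.0274 FPKM. Like the uptake and binding genes, all 7 were higher in 5-AZA replicate 102 than in 101, with a median gap of 0.56 on the log2 scale. All 8 skeletal muscle markers were called higher, with sums of 1.60 and 1.27 against 812 and 1243 FPKM, led by Mylpf, a fast myosin light chain. Each of these muscle markers was also higher in 5-AZA replicate 102 than in 101, as were 9845 of the 13199 genes tested. This direction was thus not particular to adipocyte markers. Fabp3, Cd36, Lpl and Slc27a1 are used by both tissues, and the part of either cell type in their levels was not tested.

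Markers of other cell types gave a mixed picture. Of 8 macrophage markers 3 were tested and 1, Cd68, was called higher, with sums of 4.52 and 5.79 against 6.38 and 8.44 FPKM, and Adgre1 and Aif1 were listed at 0 in all samples. Cd14 was the highest of them, and Ptprc, the pan-leukocyte marker, did not exceed 0.0631 FPKM. Of 8 endothelial markers 5 were tested and 3 were called higher, Emcn, Tek and Cdh5, with sums of 0.758 and 0.557 against 4.12 and 3.57 FPKM. Kdr and Tie1, which define endothelium, were listed at 0 in all samples, as was Gpihbp1. Of 8 cardiomyocyte markers 3 were tested and called higher, Tnnt2, Tnni3 and Myh6, with sums of 0.706 and 0.988 against 29.9 and 46.6 FPKM, while Nppa, Nppb, Myl7 and Tbx5 were listed at 0. Of 6 glial markers, relevant to Fabp7 and Pmp2, 5 were tested, with Gfap and Sox10 called higher, and with sums of 25.1 and 35.4 against 22.7 and 36.7 FPKM, most of it S100b, and Olig1 was listed at 0. Mesenchymal markers, led by Ly6a, summed to 370 and 334 against 486 and 477 FPKM, and 1 of 6, Thy1, was called higher. Of the markers called higher, Cidec, Ckm, Myh3, Myh6, Cdh5, Emcn and Sox10 were below 0.1 FPKM in both untreated samples, so that the limit on low values fixed their direction. The part of these cells in the levels was not tested.

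**Figure D4:**
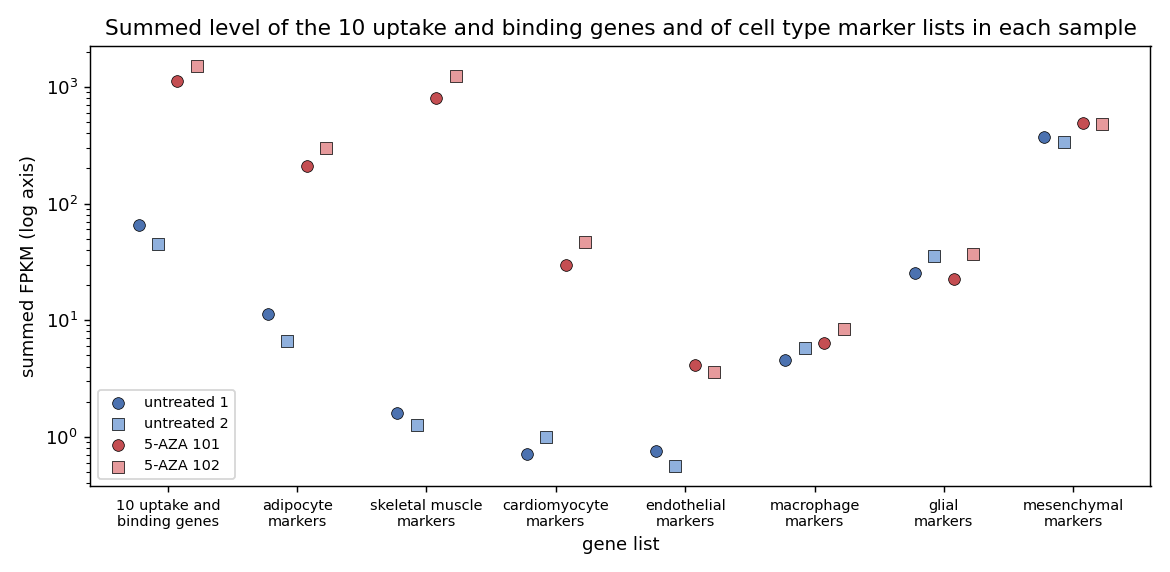
Summed FPKM, on a log axis, of the 10 uptake and binding genes and of 7 cell type marker lists in the 4 samples, with blue for untreated and red for 5-AZA. The 10 genes and the adipocyte, skeletal muscle and cardiomyocyte markers are higher after 5-AZA by an order of magnitude or more, while glial sums overlap between the groups and macrophage sums stay between 4.52 and 8.44 FPKM.

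For each of the 8 genes, the 2 genes with the most similar course were sought among 10792 others with a mean of at least 1 FPKM, by the root mean square difference of centred log2(FPKM + 0.1) over the 4 samples. With 4 samples, this mostly finds genes with an equal gap between the groups. Acsl1 was closest to Lipe and Hephl1, at differences of 0.05 and 0.06 on the log2 scale. Lpl was closest to Nckap1l and Tuba3a, Fabp3 to Pf4 and Slpi, Fabp4 to Itgb1bp2 and Fcer1g, Cd36 to Ttn and Gm364, and Aqp7 to Ndrg2 and Igfbp5. Fabp5 was closest to Gadd45a and Pde3b. Slc27a1 was closest to Agt and Hes1, at the largest differences of 0.17 and 0.20.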

How the data were processed

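Stranded libraries of total RNA without ribosomal RNA were made from 2 samples of each group. The authors deposited FPKM values for each RefSeq transcript. The submitters' processing notes name Trimmomatic, HISAT2, Bowtie2 2.2.9, eXpress 1.5.1 and build mm9, with no roles. eXpress is an estimator that divides shared reads among transcripts, and many deposited FPKM values are below 1e-10, which is no measurable level.

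Transcripts were summed per gene, and log2(FPKM + 0.1) of genes with a mean of at least 0.1 FPKM was fitted with limma 3.58.1 (lmFit, eBayes with trend) in R 4.3.3, with both groups and no covariate. P-values were adjusted over all genes tested. The fit was tested on simulated data. DESeq, the authors' tool for differential expression, needs counts and was not used here. The R package data.table (version 1.17.8) read the files. Alternatives were other pseudocounts, limits and scalings, eBayes without trend, leaving out each sample, and curated transcripts only. The genes and lists were chosen with earlier results of these data known. Named are the 10 genes, called genes of the lists, list genes of at least 10 FPKM in every sample, and for markers the highest and those at 0, while others were named after their values were seen. A few list genes are not reported here. lncRNA and circRNA values were not used here, and 0 columns of sample values of the mRNA table were left out.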

Additional observations from a re-analysis of the deposited data

How the results depend on the processing

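None of the 8 log2 fold changes changed sign under the 12 alternatives or with curated transcripts only. Cd36, Lpl and Acsl1 were called under all of them, Fabp3, Fabp4, Fabp5 and Aqp7 under all except those without 5-AZA replicate 101 or 102, and Slc27a1 under 8 of 13. The count of these genes called higher ranged from 3 to 8 when 1 sample was left out, where the fit has fewer samples. Of all genes, 1724 were called higher and 174 lower. With a pseudocount of 1 FPKM these were 875 and 86, with quantile normalization 1041 and 886, and with a mean of at least 1 FPKM 845 were higher. Without a limit on low values 83 were lower. With 1 sample left out they ranged from 785 to 1616 and from 50 to 181. Of the related genes, 7 were called higher and 2 lower. With a pseudocount of 1 FPKM these were 3 and 1, with a mean of at least 1 FPKM 2 and 1, and with quantile normalization 3 and 4. Without a limit on low values 3 were higher. Apart from the fits with fewer genes or samples, the cause was not tested. No paired analysis was possible because the groups share no replicate number. With FPKM alone, the precision of low values such as those of Fabp3 and Aqp7 in untreated cells is unknown.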
